A study of Mus musculus with 3 samples.

Results

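The cells described here are barcodes of mouse blastoids that kept Pou5f1, a core pluripotency factor, and carried more molecules of 3 genes of the later epiblast, Otx2, Pou3f1 and Fgf5, than of 3 genes of the early epiblast, Klf2, Zfp42 and Nanog. A UMI is a tag that counts a captured RNA molecule once, and CPM are UMIs per 1000000 of the same barcode or of the same sum of barcodes. A barcode was deep enough at 10000 UMIs or more, with no more than 20% of them mitochondrial. It also needed at least 150 CPM of Pou5f1, under 100 CPM of the endoderm factors Gata6, Sox17 and Gata4 together, under 1000 CPM of the endoderm carrier genes Ttr, Rbp4, Apoa1 and Apoa2, and under 800 CPM of the keratins Krt8, Krt18 and Krt19. Barcodes with both T and Fgf8, which mark the primitive streak, were left out. These limits held for 120 of 3669 deep barcodes, out of 18388 barcodes in all: 37 of 1405 in Type I, 77 of 1992 in Type II and 6 of 272 in Type III. As shares of deep barcodes these were 2.63% (exact 95% binomial interval 1.86 to 3.61), 3.87% (3.06 to 4.81) and 2.21% (0.814 to 4.74), intervals that cover counting error only.

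The series holds 3 droplet libraries, 1 for each blastoid type, and the labels do not state what defines a type. All came from E14 mouse embryonic stem cells kept with LIF at 1000 U/mL and T0901317, an agonist of the liver X receptors (LXR, among them Nr1h2), at 10 µM, and the labels call these cells NrESCs. The cells were seeded at 5 per microwell with rhFGF4 (12.5 ng/mL), heparin (0.5 µg/mL), CHIR99021 (an inhibitor of GSK3, 3 µM) and, on the first day, Y-27632 (a ROCK inhibitor, 2 µM). BMP4 (5 ng/mL) and A83-01 (an inhibitor of the Nodal and activin type I receptors, 0.5 µM) were added from day 1, and blastoids were taken on day 5 and digested for 30 min. Every library carries these conditions, E14 is a single stem cell line, and the labels do not give how many blastoids a library pools, so the data hold no untreated control and no replicate of a type.

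In the mouse embryo the epiblast starts in a naive state before implantation, held by factors such as Klf2, Esrrb and Nanog, and passes through a formative state to a primed state that responds to signals for germ layers. Otx2 and Pou3f1 (Oct6) are transcription factors of that passage, Fgf5 is its classical ligand marker, and the de novo DNA methyltransferases Dnmt3a and Dnmt3b are known to rise with it. Nodal, a ligand of the TGF-beta family, acts in the epiblast and later in the streak.

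Some cell barcodes occurred in more than 1 library: 155 in Types I and II, 209 in Types I and III and 151 in Types II and III, of which 1, 0 and 0 were deep in both libraries. Among the members, 1 in Type I, 2 in Type II and 4 of 6 in Type III had their barcode in another library, there with 880 to 2941 UMIs. The labels do not say whether libraries were run on 1 flow cell. Members had a median of 59764, 50502 and 90377 UMIs in Types I, II and III, and naive cells, chosen by the same limits with the opposite balance, 56313, 46435 and 59991. The deepest member gave 32.2% of the Type III sum, against 6.94% in Type I and 2.52% in Type II, so Type III values rest on few cells. Scrublet, a doublet caller, marked 3, 25 and 1 deep barcodes (0.214%, 1.26% and 0.368%), and doublets were kept. Removing the 77, 148 and 5 barcodes of highest Scrublet score took 0 of the 120 members.

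The next values chose the cells and are a description, with no test. Over the sum of members Pou3f1 stood at 172, 172 and 111 CPM in Types I, II and III, against 13.5, 21.7 and 17.2 CPM in naive cells. Otx2 stood at 103, 112 and 89.0 CPM, against 52.4, 58.2 and 60.1, and Fgf5 at 25.3, 25.7 and 43.6 CPM, against 3.16, 4.34 and 6.62. Of the UMIs of these 3 genes in members, Pou3f1 gave 55.5%, Otx2 35.5% and Fgf5 9.01%, so most came from a pair of transcription factors. Per cell the 3 genes together ran from 30.8 over a median of 238 to 985 CPM in Type I, from 59.9 over 294 to 881 CPM in Type II and from 43.9 over 240 to 350 CPM in Type III. The other side of the balance was low, not empty: Klf2 stood at 30.4, 61.3 and 36.3 CPM (naive cells 369, 411 and 442), Zfp42 (Rex1) at 47.9, 44.1 and 47.2 CPM (naive cells 541, 525 and 711) and Nanog at 39.6, 47.5 and 67.2 CPM (naive cells 150, 155 and 218). Pou5f1 stood at 382, 368 and 449 CPM in members and at 435, 382 and 548 CPM in naive cells.

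**Figure D1:**
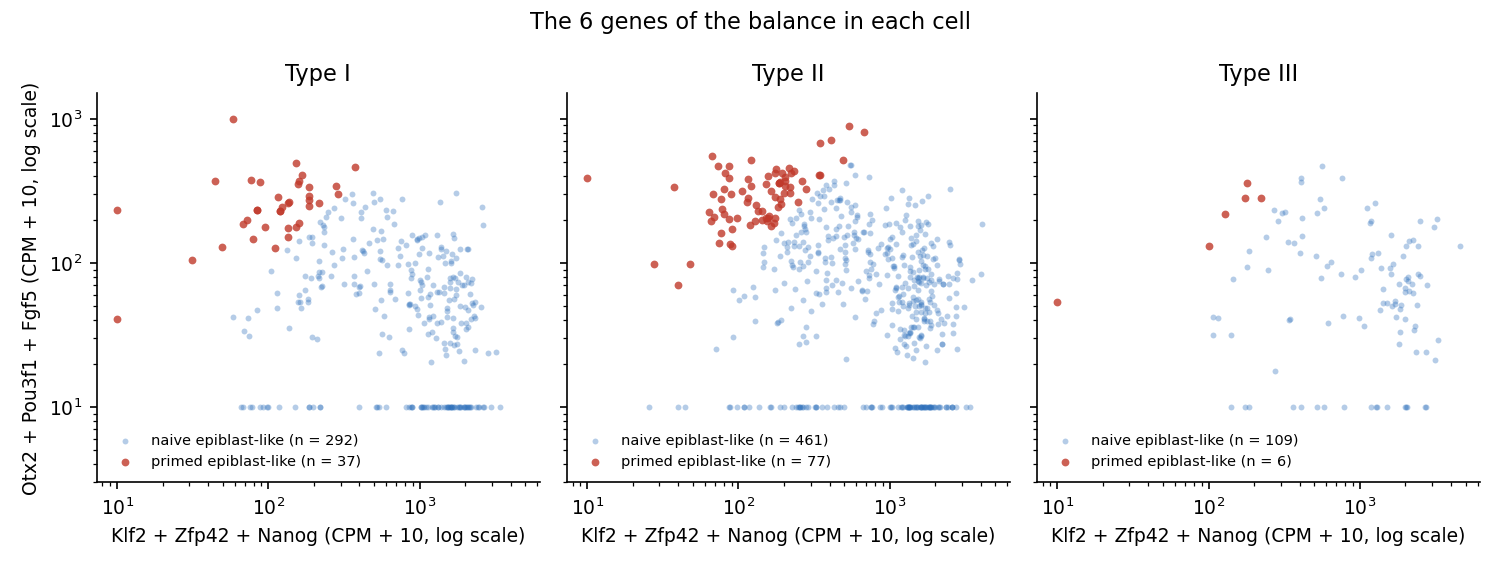
Each point is a member or a naive cell of the 3 libraries, drawn by its CPM of Klf2, Zfp42 and Nanog (x axis, log scale) and of Otx2, Pou3f1 and Fgf5 (y axis, log scale), with 10 CPM added to both. Members lie on the upper left, and the cells on both sides of the limit meet without a gap; the members' sums of the later genes were 301, 310 and 244 CPM in Types I, II and III.

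The members were not a group set apart from naive cells. An excess of exactly 1 UMI held for 18 of the 120, an excess of 2 UMIs for 16 and an excess of 3 or more for 86. Those at 1 UMI had 173 CPM of the 3 later genes and 145 CPM of the 3 early genes, against 323 and 135 CPM at 3 or more. Just outside the limit, 22 cells with equal UMIs had 131 CPM of both sets, and 39 cells short by 1 UMI had 121 and 154 CPM. All 3 later genes were detected together in 55 members, Otx2 and Pou3f1 without Fgf5 in 31, Pou3f1 and Fgf5 in 8, Otx2 and Fgf5 in 3, Pou3f1 alone in 18, Otx2 alone in 5 and Fgf5 alone in 0. Of the streak genes, T alone was seen in 9 members, Fgf8 alone in 8 and neither in 103. The limit on Pou5f1 alone excluded 12, 29 and 2 cells in Types I, II and III, against 37, 77 and 6 members, and the limit on keratins alone 4, 7 and 5.

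Nodal took no part in the rule. It is no independent check of the label, because it was a named marker of this class and earlier results were known. Nodal also did not separate members from streak mesoderm-like cells (below). It stood at 93.1, 110 and 184 CPM in members of Types I, II and III and at 52.6, 68.4 and 51.5 CPM in naive cells, so members were higher in each library, by a log2 fold change of 0.63 ± 0.09 (SE; adjusted p = 4.62e-06, Types I and II, test described below; adjusted p = 0.0515 with barcodes thinned before summing). With every barcode thinned at random to 10000 UMIs, Nodal was detected in 45.9% of members in Type I (95% interval 29.5 to 63.1), 63.6% in Type II (51.9 to 74.3) and 50.0% in Type III (11.8 to 88.2), in 34.9%, 41.0% and 34.9% of naive cells and in 60.0%, 50.0% and 66.7% of the 15, 32 and 3 streak mesoderm-like cells. The intervals of members and naive cells did not overlap in Type II only, where the naive interval was 36.5 to 45.6. Without thinning, Nodal was seen in 83.8%, 93.5% and 100% of members. Cells rich in keratins gave a background of 6.73%, 16.5% and 15.3%, and cells rich in endoderm carriers 1.35%, 3.91% and 0 of 19 cells, which allows up to 15.8%.

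Thinned shares of the rule's own genes are a description. Pou3f1 was detected in 64.9% (47.5 to 79.8) of members in Type I, 79.2% (68.5 to 87.6) in Type II and 83.3% (35.9 to 99.6) in Type III. Otx2 was detected in 51.4% (34.4 to 68.1), 61.0% (49.2 to 72.0) and 50.0% (11.8 to 88.2), and Fgf5 in 18.9% (7.96 to 35.2), 22.1% (13.4 to 33.0) and 50.0%. Fgf5 was thus the marker missed most often at this depth in Types I and II. Otx2 and Pou3f1 were both present in 48 of 120 thinned members and both missing in 9.

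**Figure D2:**
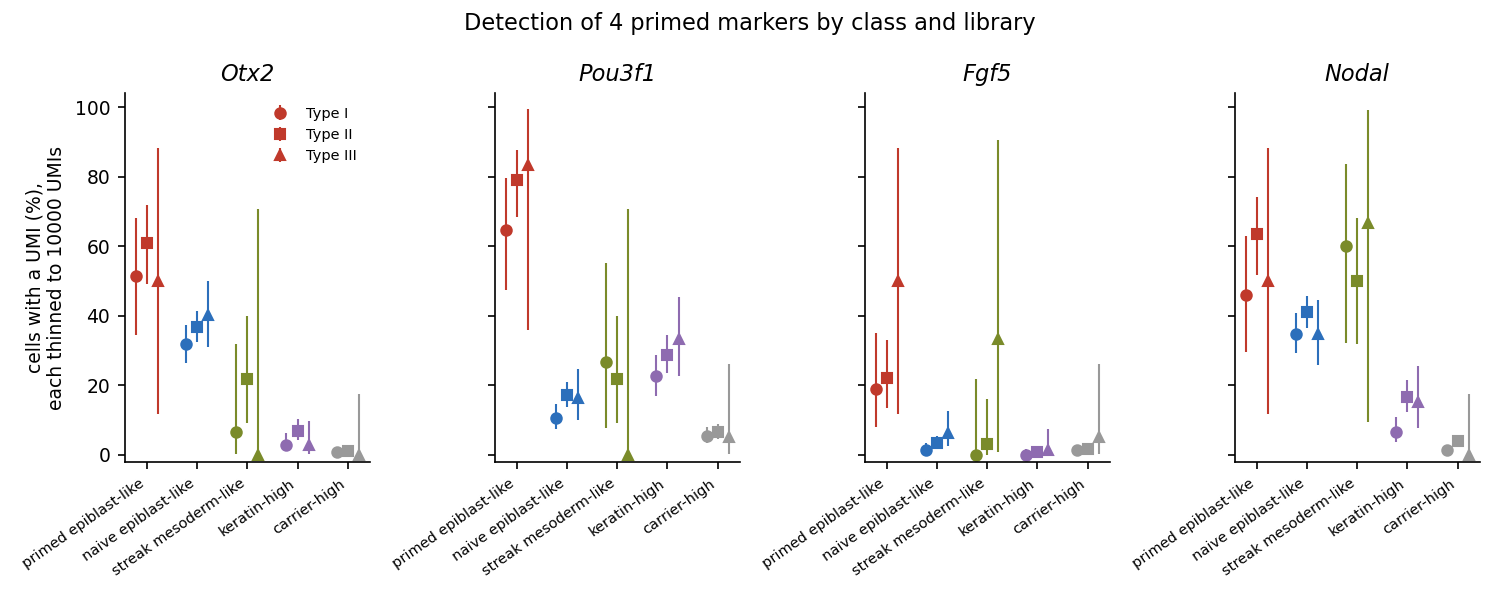
Shares of cells with at least 1 UMI of Otx2, Pou3f1, Fgf5 and Nodal (y axis, percent, each barcode thinned to 10000 UMIs) by cell class and library, with exact 95% binomial intervals. For Nodal, which the rule did not use, members stood at 45.9%, 63.6% and 50.0%, above naive, keratin-rich and carrier-rich cells and, in Types I and III, below streak mesoderm-like cells (60.0% and 66.7%); the Type I and Type III intervals overlap those of naive cells.

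Which genes go with the shift of balance inside the epiblast-like cells? UMIs were summed per class and library and compared with edgeR's quasi-likelihood test, with library as a block and Benjamini-Hochberg adjustment over all genes tested; a gene is called at an adjusted p under 0.05. Type III, with 6 members, did not reach the 10 cells a sum needed, so 4 sums from Types I and II entered, with 1 residual degree of freedom of their own. The p-values therefore measure how alike the difference was in 2 libraries of different types. Of 12017 genes, 2048 were called (17.0%): 946 higher in primed cells (7.87%) and 1102 lower (9.17%), of which 296 (2.46%) and 387 (3.22%) differed at least 2-fold. Both classes were cut by 6 genes measured in the same cells, so this number describes what accompanies the balance and nothing is read from it. TMM scaling shifted the log2 fold changes of all genes by -0.117 against scaling by library totals; of the called genes 46.2% were higher in primed cells with TMM and 68.7% with library totals. The fold changes given are those of TMM scaling. DESeq2 called 511 genes, all with the same direction. Counts for the gene lists below are to be read beside the shares of 7.87% higher and 9.17% lower over all genes. Without Type I 899 of 10751 genes were called (372 higher, 527 lower) and without Type II 569 of 10515 (228 and 341). List counts in those fits are therefore lower for all genes alike. Type III, outside the fit, had the same direction for 24 of 24 genes called at least 2-fold higher that reached 50 CPM and for 37 of 37 called lower; of all 2432 genes at that level 56.3% were higher in its members.

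Among genes with at least 50 CPM the largest rise was that of Car4, a membrane-bound carbonic anhydrase. It stood at 272, 184 and 167 CPM in members of Types I, II and III and at 42.4, 43.8 and 38.5 CPM in naive cells, with no overlap and a log2 fold change of 2.25 ± 0.10 (adjusted p = 4.56e-17). Pim2, a serine/threonine kinase on the primed and formative list, followed with 249, 169 and 156 CPM against 54.4, 55.8 and 46.5 CPM (1.77 ± 0.10). Fst (follistatin, which binds activin) stood at 65.9, 107 and 96.3 CPM against 25.6, 31.9 and 27.7 (1.48 ± 0.11). Car2, a cytosolic carbonic anhydrase, stood at 258, 257 and 85.4 CPM against 88.2, 84.7 and 67.6 (1.46 ± 0.08), and its Type III value was near that of naive cells. Tpm1, a tropomyosin of the actin cytoskeleton, rose from 129, 138 and 106 CPM to 396, 347 and 234 CPM (1.35 ± 0.07). Ssbp3 and Pphln1 rose by 1.30 ± 0.11 and 1.35 ± 0.12.

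The largest fall at that level was Mylpf, a myosin light chain of fast muscle, from 82.3, 58.4 and 49.4 CPM in naive cells to 1.84, 2.92 and 1.82 CPM in members (log2 fold change -4.84 ± 0.21). Mymx, known for myoblast fusion, stood at 7.37, 17.8 and 12.7 CPM against 56.1, 68.2 and 69.3 (-2.33 ± 0.16). Neither is a usual marker of pluripotency, and both were low in all 3 libraries. Arid5b, a DNA-binding protein, fell by 2.46 on the log2 scale, from 106, 102 and 113 CPM to 12.4, 25.7 and 32.7 CPM.

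The naive programme was lower well beyond the 3 genes that chose the cells. Of 24 naive pluripotency genes tested outside the rule, 21 fell and 0 rose; their median log2 fold change was -2.25, against -0.01 for all genes. Esrrb, an orphan nuclear receptor that holds the naive state, stood at 3.23, 5.57 and 5.45 CPM against 30.9, 26.0 and 37.2 CPM in naive cells (-2.68 ± 0.22). Its partner Tfcp2l1 stood at 2.30, 4.78 and 3.63 CPM against 23.4, 26.1 and 31.5 (-2.82 ± 0.24), and Nr0b1 (Dax1) at 0.461, 2.39 and 0 CPM against 28.1, 40.1 and 53.0 (-4.52 ± 0.27). Klf4 and Tbx3 fell by 1.43 and 2.33. Tdh, threonine dehydrogenase of mouse embryonic stem cells, stood at 54.8, 120.5 and 111 CPM against 253, 300.3 and 309 (-1.76 ± 0.11). Dppa5a, abundant in both classes, stood at 1704, 1851 and 1599 CPM against 3969, 4007 and 3017 (-1.28 ± 0.05). The number of falls was 21 of 23 without Type I and 20 of 23 without Type II; in each of these fits the 6 members of Type III took the place of the missing library.

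Core pluripotency genes did not move as a block: of 14 tested, 3 rose and 8 fell. Sox2, the partner of Pou5f1, stood at 55.3, 62.9 and 65.4 CPM in members and at 181, 199.9 and 221 CPM in naive cells, a fall by 1.80 on the log2 scale (adjusted p = 1.11e-15). Lin28a, an RNA-binding protein that blocks let-7 maturation, stood at 208, 213 and 196 CPM against 115, 114 and 117 (0.76 ± 0.08). Pou5f1 itself belongs to the rule and is not tested. Without Type I the list had 1 rise and 7 falls, and without Type II 1 and 4.

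Of 22 primed and formative genes outside the rule, 11 rose, 3 fell and 8 were not called, with a median of 0.56. Dnmt3b stood at 202, 272 and 225 CPM against 98.3, 115 and 86.6 CPM (1.04 ± 0.08, adjusted p = 9.95e-12), higher in every library. Sox11, a SoxC transcription factor, stood at 131, 117 and 134 CPM against 49.7, 52.4 and 42.6 (1.15 ± 0.09). Zic2, a zinc finger factor of the primed epiblast, stood at 59.4, 49.4 and 96.3 CPM against 28.3, 38.4 and 48.2 (0.55 ± 0.13; adjusted p = 0.0665 without Type I), and Lef1, a nuclear effector of WNT, at 45.2, 44.9 and 9.09 CPM against 24.6, 25.8 and 19.1 (0.72 ± 0.12; 0.367 without Type I and 0.574 without Type II), with Type III on the other side. Utf1, a chromatin factor placed in this list, stood at 358, 357 and 396 CPM against 311, 366 and 372 (-0.04 ± 0.07, adjusted p = 0.746). The falls were Epha4, Slc7a3 and Dnmt3l, the last a cofactor of the de novo methyltransferases, from 87.2, 98.8 and 95.6 CPM to 41.0, 39.5 and 41.8 CPM (-1.34 ± 0.11). Without Type I 8 rose and 3 fell, and without Type II 7 and 3.

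Genes of DNA methylation moved in both directions. Of 14 tested, 3 rose and 6 fell, and the same counts came without Type I and without Type II. The methyltransferase Dnmt3a stood at 81.1, 74.1 and 74.5 CPM against 43.3, 45.4 and 42.0 CPM (0.68 ± 0.10). The dioxygenases that oxidise methylcytosine were lower: Tet1 stood at 75.1, 67.4 and 99.9 CPM against 121, 132 and 141 (-0.96 ± 0.09), and Tet2 at 5.07, 4.78 and 1.82 CPM against 23.0, 23.5 and 25.7 (-2.37 ± 0.22). The maintenance enzyme Dnmt1 stood at 49.8, 67.2 and 63.6 CPM against 62.1, 60.3 and 59.9 and was not called (adjusted p = 0.401).

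**Figure D3:**
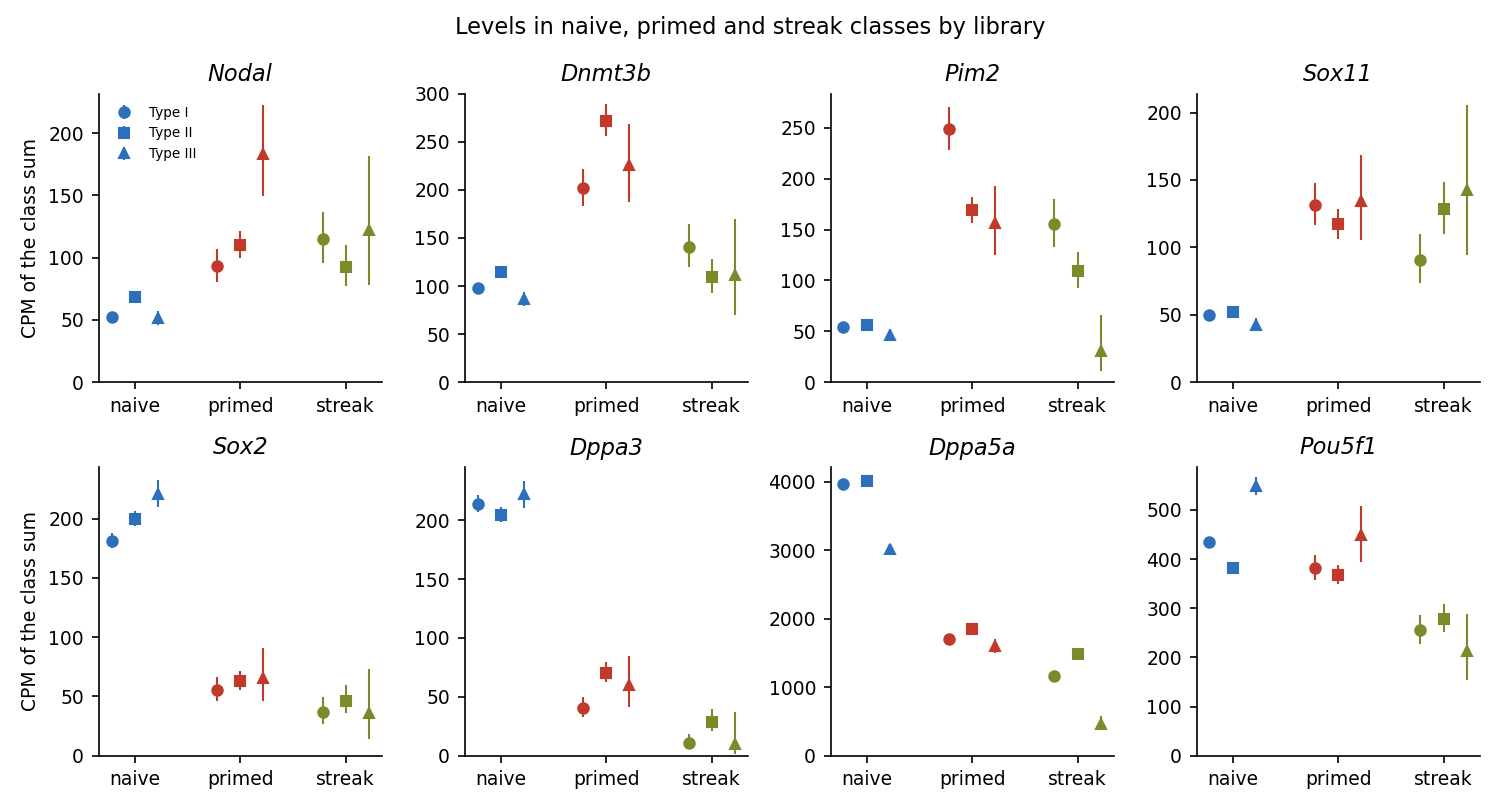
Levels (y axis, CPM of the sum over a class) of the genes named on the panels in members, naive cells and streak mesoderm-like cells of the 3 libraries, with exact 95% Poisson intervals that cover counting error only. Dnmt3b was higher in members than in naive cells in all 3 libraries (202, 272 and 225 against 98.3, 115 and 86.6 CPM), and Sox2 lower (55.3, 62.9 and 65.4 against 181, 199.9 and 221 CPM).

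Within the Nodal pathway the ligand rose and its usual feedback targets gave no call. Of 17 genes tested, Nodal, Skil, Acvr2b and Tdgf1 rose and Gdf3 and Pcsk6 fell. Tdgf1 (Cripto), the co-receptor, stood at 364, 425 and 394 CPM against 270, 343 and 364 (0.25 ± 0.06), and the receptor Acvr2b at 45.6, 47.2 and 47.2 CPM against 30.6, 35.9 and 33.4 (0.36 ± 0.12). Both calls were lost without Type I (adjusted p = 0.608 and 0.414) and without Type II (0.428 and 0.273). Skil, a repressor of Smad signalling, stood at 69.6, 63.2 and 70.9 CPM against 41.5, 42.9 and 43.4 (0.52 ± 0.10), with an adjusted p of 0.0612 without Type I. Gdf3, a related ligand, fell by 0.65, and Pcsk6, a convertase that processes Nodal, stood at 2.30, 3.72 and 5.45 CPM against 16.1, 17.7 and 18.5 (-2.54 ± 0.27). The antagonists Lefty1 and Lefty2, near-identical copies whose UMIs can be split between them, stood at 1.84, 4.51 and 3.63 CPM and at 1.84, 3.45 and 1.82 CPM, against 2.36, 6.61 and 21.5 and 2.29, 2.88 and 3.91 CPM in naive cells. Neither they nor Smad7 and Furin were called (adjusted p = 0.278, 0.974, 0.975 and 0.177), although Lefty1 passed without Type I, with an adjusted p of 0.0472 and a log2 fold change of -1.13. The count for the list was 1 rise and 3 falls without Type I and 2 and 2 without Type II.

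In the FGF and ERK list 8 of 18 tested genes rose and 1 fell, and in the WNT list 12 of 23 rose and 1 fell. Dusp6, an ERK phosphatase and common readout of FGF signalling, stood at 55.8, 49.1 and 41.8 CPM against 20.6, 22.7 and 21.98 CPM (1.14 ± 0.12), and Dusp4 at 76.0, 100.1 and 58.2 CPM against 33.0, 45.5 and 30.9 (1.05 ± 0.10). Myc stood at 19.8, 15.4 and 14.5 CPM against 6.08, 6.28 and 8.58 (1.36 ± 0.22). Etv4, a further readout, stood at 19.4, 19.4 and 18.2 CPM against 10.2, 14.5 and 10.7 and was not called (adjusted p = 0.0534, and 0.00602 with library totals). Of WNT ligands, Wnt8a stood at 5.53, 9.56 and 18.2 CPM against 1.74, 2.69 and 1.20 (1.66 ± 0.34), and Wnt3 at 6.91, 10.6 and 7.27 CPM against 3.16, 2.64 and 2.11 (1.54 ± 0.31; adjusted p = 0.238 without Type II). Axin2, a feedback target of WNT, stood at 38.2, 33.7 and 23.6 CPM against 30.3, 25.8 and 22.7 and was not called (adjusted p = 0.202). The FGF list had 4 rises without Type I and 3 without Type II, and the WNT list 4 and 3, with 0 falls in each.

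BMP genes gave 3 rises and 2 falls of 15, beside 7.87% higher and 9.17% lower over all genes. Bmp4, which was also in the medium as protein, stood at 7.37, 2.39 and 1.82 CPM against 20.4, 25.2 and 33.4 CPM (-2.56 ± 0.27). Id1, an early target of BMP signalling, stood at 200, 244 and 92.7 CPM against 180, 148 and 136 (0.34 ± 0.09, adjusted p = 0.00664); it was higher in Types I and II, lower in Type III, and lost its call without either library (adjusted p = 0.378 without Type I and 0.536 without Type II, where the sign turned to -0.20). Without Type I 1 BMP gene rose and 2 fell, and without Type II 0 and 2.

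Genes of later fates were low. Eomes, a T-box factor of the streak, stood at 9.68, 21.5 and 9.09 CPM against 4.09, 7.13 and 3.01 (1.37 ± 0.22; adjusted p = 0.159 without Type II), and 4 of 7 tested streak and mesoderm genes rose, 2 without Type I and 1 without Type II. Summed over the streak list, members stood at 60.8, 65.6 and 32.7 CPM, naive cells at 28.0, 31.3 and 22.4 and streak mesoderm-like cells at 220, 176 and 295 CPM. Nes, an intermediate filament of neural progenitors, stood at 20.7, 14.3 and 10.9 CPM against 5.52, 4.29 and 4.37 (1.70 ± 0.23). Of 16 listed anterior and neural genes 6 were tested and 3 rose, and 1 without either library. A gene could pass the filter on low counts through the level of 1 class alone. Rises among the tested streak and neural genes therefore describe the genes that passed, not the lists. Of 10 germ cell genes 0 rose and 6 fell, and without Type II 4 fell. These falls overlap those of other lists: Prdm14 and Dppa3 (Stella) are also naive genes, Nanos3 a core gene and Tfap2c a trophectoderm marker. Dppa3 fell from 214, 205 and 222 CPM to 40.5, 70.6 and 60.0 CPM (-1.97 ± 0.12).

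**Figure D4:**
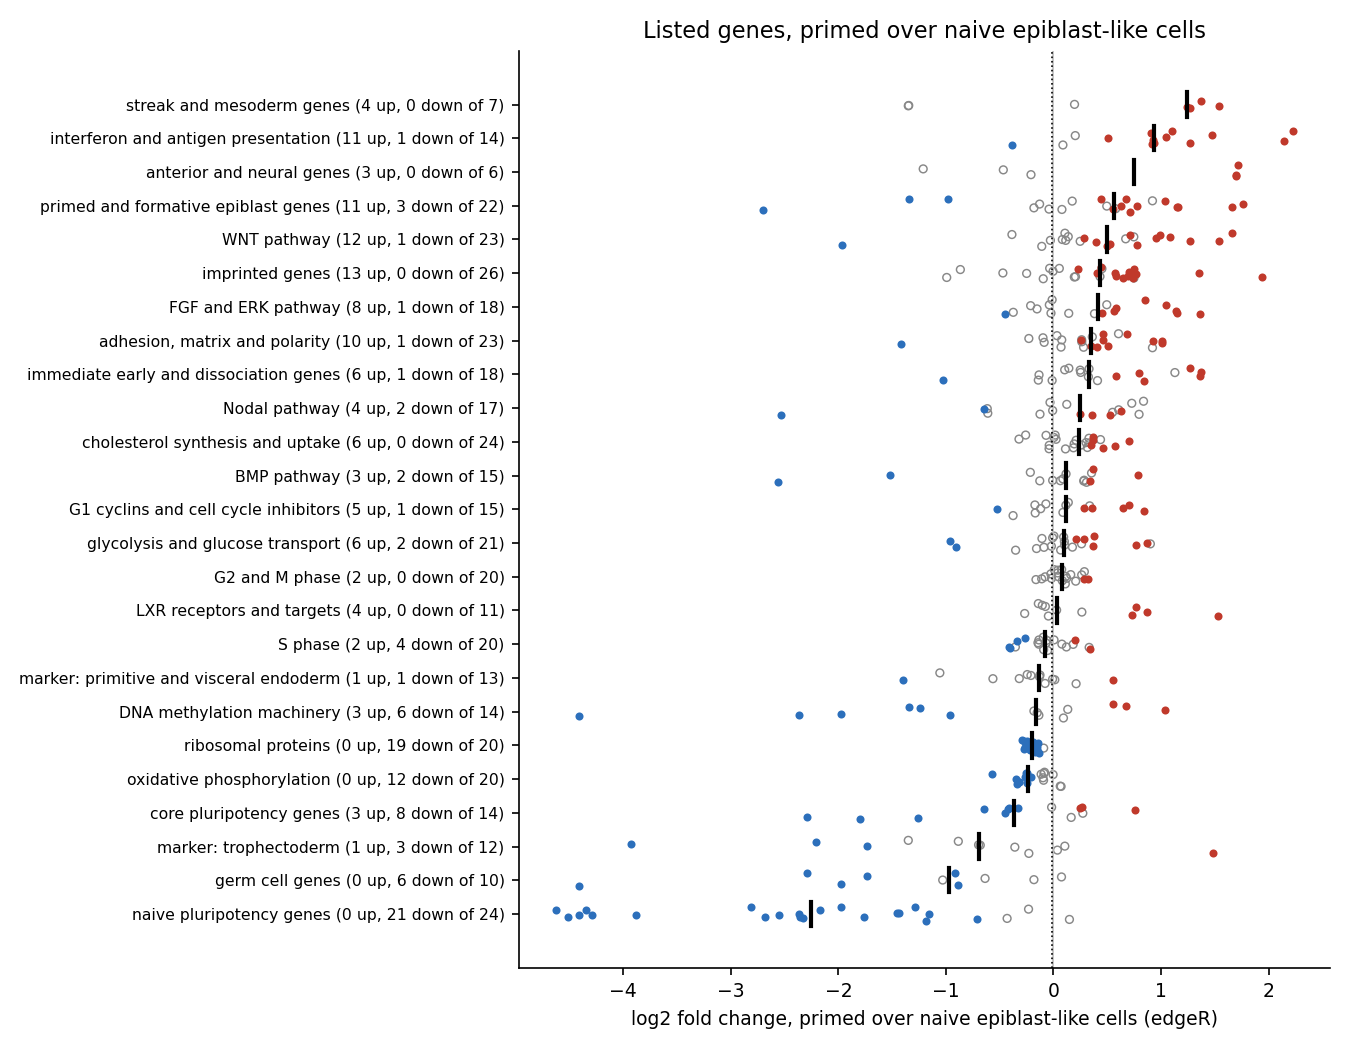
Log2 fold changes of the tested members of each gene list (points) with the median (bar), for members over naive cells in Types I and II; filled points were called and open points were not. The naive list had a median of -2.25, the primed and formative list 0.56 and the interferon list 0.93; the median of all genes (dotted line) was -0.01.

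Interferon and antigen presentation genes had the highest median of the lists tested after the streak genes. Of 14 tested, 11 rose and 1 fell against naive cells, with a median of 0.93; 5 rose and 1 fell without Type I, and 5 and 0 without Type II. Bst2 (tetherin), an antiviral membrane protein, dominated the list in UMIs, at 847, 648 and 1021 CPM in members against 395, 327 and 466 CPM in naive cells (0.93 ± 0.06, adjusted p = 1.91e-13). The guanylate-binding protein Gbp2 stood at 6.91, 8.49 and 10.9 CPM against 1.92, 1.42 and 4.52 (2.14 ± 0.36; adjusted p = 0.0913 without Type II), and its close copy Gbp2b, between which UMIs may be split, at 12.4, 6.90 and 0 CPM against 1.67, 1.89 and 4.06 (2.23 ± 0.35; 0.157 without Type I and 0.135 without Type II). Psmb8, a subunit of the immunoproteasome, stood at 18.9, 10.9 and 16.4 CPM against 3.66, 5.52 and 7.23 (1.48 ± 0.27; 0.0908 without Type I). B2m, the light chain of class I molecules, stood at 44.7, 28.7 and 27.3 CPM against 24.8, 21.4 and 17.6 (0.51 ± 0.14; 0.444 without Type I and 0.103 without Type II). Isg15, a ubiquitin-like product of interferon response, stood at 5.07, 7.96 and 7.27 CPM against 1.98, 3.02 and 2.41 (1.27 ± 0.34; adjusted p = 0.218 without Type II). The fall was Ifitm3, from 73.0, 84.6 and 96.8 CPM to 73.3, 60.0 and 50.9 CPM (-0.39 ± 0.11), which was level in Type I and not called without Type II (adjusted p = 0.232).

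Summed over its 16 genes, the interferon list stood at 1215, 923 and 1288 CPM in members, 582, 529 and 714 CPM in naive cells and 1436, 1304 and 2364 CPM in streak mesoderm-like cells. Endoderm carrier-rich cells stood at 715, 662 and 824 CPM and keratin-rich cells at 532, 646 and 799 CPM. The sum in members was thus above those of naive, carrier-rich and keratin-rich cells in each library. Bst2 alone gave most of the sum in members and in naive cells of each library, so these sums describe that gene more than the list. Per cell the sum ran from 169 over a median of 1167 to 2147 CPM in members of Type I and from 294 over 836 to 2362 CPM in Type II. In naive cells the medians were 412 and 383 CPM and the highest cells 3181 and 3372 CPM, so single naive cells reached above all members.

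**Figure D5:**
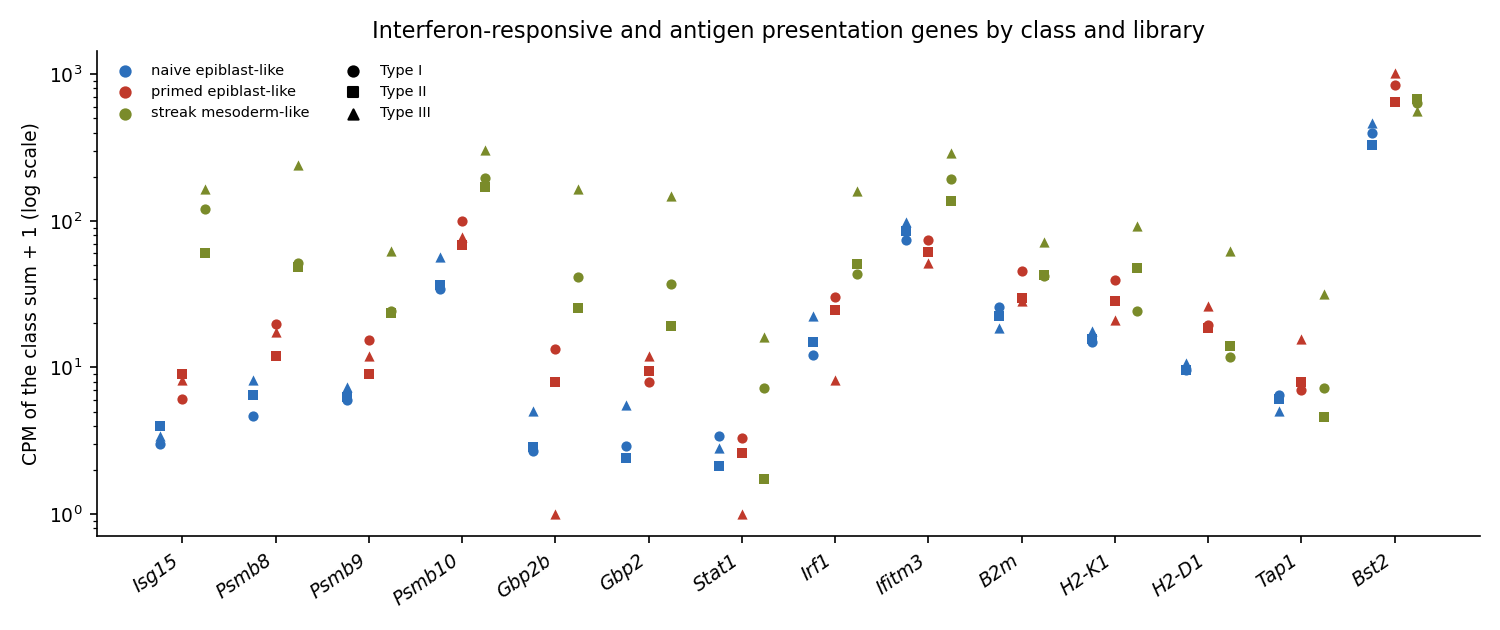
CPM of the class sum plus 1 (y axis, log scale) of the 14 tested interferon and antigen presentation genes (x axis) in naive cells, members and streak mesoderm-like cells (colours) of the 3 libraries (shapes). Bst2 stood highest, at 847, 648 and 1021 CPM in members against 395, 327 and 466 CPM in naive cells, and Gbp2b was at 0 in members of Type III.

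Promoters are shown for 5 of the 11 called genes of the list, chosen because they held the letters described next. The other called genes of the list did not hold them. The letters GAAANNGAAA (N is any base), the core of an interferon-stimulated response element, were searched on both strands from 250 bases before to 50 bases after each start in RefSeq promoters of GRCm38.p6, after the interferon genes had been seen. They occurred in 5 of the 11 called genes of the list (45.5%), in 4.68% of all 727 called higher genes with a promoter in the table, in 3.45% of 841 called lower, in 3.26% of 9417 tested and in 3.44% of all 32851 promoters, the last counted per promoter and the others per gene. A match is no evidence of binding. The list was drawn up as interferon and antigen presentation genes, so its high share cannot be read as a trait of the members. The share among its genes that were not called was not computed. The stretches before the start are printed in the direction of the gene with the match in capitals (TTTCNNTTTC where it lies on the other strand), for Isg15 at chr4:156200850-156200921 (minus strand), Gbp2 at chr3:142620579-142620638 (plus), Gbp2b at chr3:142594685-142594744 (plus), B2m at chr2:122147523-122147582 (plus) and Bst2 at chr8:71537562-71537627 (minus).
Isg15: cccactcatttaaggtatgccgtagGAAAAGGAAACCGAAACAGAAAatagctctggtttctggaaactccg
Gbp2: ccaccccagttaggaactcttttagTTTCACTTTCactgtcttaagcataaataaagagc
Gbp2b: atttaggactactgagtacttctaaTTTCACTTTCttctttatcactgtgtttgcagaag
B2m: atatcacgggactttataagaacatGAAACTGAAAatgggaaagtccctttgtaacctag
Bst2: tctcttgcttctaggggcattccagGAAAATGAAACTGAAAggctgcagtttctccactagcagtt
With overlapping matches counted, Isg15 held 3, Bst2 2 and the others 1 each in the stretch shown, and Gbp2 and Gbp2b, neighbours on the chromosome, had the same 10 letters. Among the other motifs searched, TAATCC, bound by Otx2 and other homeodomain proteins, occurred in 6.33% of called higher and 7.37% of called lower genes. This was near its share of 6.76% in tested genes and 7.06% in all promoters. ATGCAAAT, the octamer bound by POU factors, occurred in 2.34% of called higher and 1.66% of called lower genes. Its share was 1.57% in tested genes and 1.74% in all promoters. The share in called higher genes was above both, rests on 17 genes and was not tested.

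Adhesion and polarity genes were partly called. Of 23 tested adhesion, matrix and polarity genes 10 rose and 1 fell, 5 and 1 without Type I and 4 and 1 without Type II. Cldn7, a tight junction claudin, stood at 148, 114 and 158 CPM against 62.8, 55.9 and 49.5 CPM (1.01 ± 0.09). Podxl, a sialomucin of the apical surface of the epiblast, stood at 62.7, 60.5 and 54.5 CPM against 24.4, 31.2 and 30.9 (1.01 ± 0.12), and Cdh1 (E-cadherin) at 167, 176 and 165 CPM against 115, 109 and 120 (0.51 ± 0.08; adjusted p = 0.0828 without Type II). Fn1, fibronectin, fell from 77.9, 85.9 and 89.1 CPM to 31.8, 34.8 and 21.8 CPM (-1.41 ± 0.11). The keratins, limited by the rule, stood at 178, 197 and 134 CPM in members against 85.7, 105 and 106 in naive cells. The trophectoderm marker list without keratins stood at 86.2, 87.1 and 114 CPM in members, 130, 136 and 212 in naive cells and 1307, 1567 and 1621 in keratin-rich cells, with 3, 1 and 7 of 15 genes at 0 in members; of 12 tested, Krt7 rose and Lgals3, Tead4 and Tfap2c fell. The endoderm marker list stood at 252, 251 and 114 CPM against 263, 280 and 190 in naive cells and 11940.1, 12491 and 13764 in carrier-rich cells, with 2, 1 and 6 of 16 genes at 0 in members.

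Among genes of glucose metabolism the transporter Slc2a1 (GLUT1) stood at 311, 284 and 389 CPM against 126, 174 and 226 CPM (0.87 ± 0.09), and the lactate transporter Slc16a3 at 171, 165 and 244 CPM against 75.6, 106 and 105 (0.77 ± 0.09). Of 21 glycolysis genes 6 rose and 2 fell; Ldhb stood at 94.5, 137 and 145 CPM against 196, 207 and 244 (-0.90 ± 0.09). The counts were 2 and 4 without Type I and 4 and 2 without Type II. Of 20 oxidative phosphorylation genes 0 rose and 12 fell, with a median of -0.24. Cox5a stood at 407, 403 and 313 CPM against 548, 564 and 526 (-0.57 ± 0.06). Falls in this list numbered 7 under library totals alone, 7 without Type I and 4 without Type II. Ribosomal protein genes, many with processed copies that can take their UMIs, had 19 falls of 20 with a median of only -0.20, 11 under library totals, 9 without Type I and 6 without Type II.

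LXR targets are given because the starting cells were kept with an LXR agonist. Of 11 tested genes 4 rose and 0 fell, also without Type I and without Type II. Arl4c, a small GTPase, stood at 109.7, 112 and 102 CPM against 34.9, 36.01 and 43.7 CPM (1.53 ± 0.09, adjusted p = 1.48e-13). The stearoyl-CoA desaturases Scd1 and Scd2 stood at 37.8, 43.5 and 60.0 CPM against 21.0, 23.3 and 15.2 (0.76 ± 0.13) and at 146, 174 and 176 CPM against 92.5, 86.8 and 67.3 (0.73 ± 0.09), and the lipase Lpl at 45.6, 36.6 and 29.1 CPM against 21.5, 19.6 and 18.7 (0.87 ± 0.13). The receptor Nr1h2 stood at 23.0, 22.6 and 21.8 CPM against 21.0, 23.7 and 23.9 (-0.10 ± 0.15, adjusted p = 0.712). Of 24 tested cholesterol genes 6 rose and 0 fell, 11 under library totals, 5 without Type I and 1 without Type II.

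How do members differ from streak mesoderm-like cells, which met the same limits on Pou5f1, endoderm and keratins but carried both T and Fgf8? There were 15, 32 and 3 such cells in Types I, II and III, and 5 of the 50 had an excess of the later epiblast genes. Of 8517 genes tested, 633 were called (7.43%): 308 higher in members (3.62%) and 325 lower (3.82%), with 148 (1.74%) at least 2-fold in each direction. DESeq2 called 72. The fits without Type I and without Type II, which take in the 3 streak cells of Type III, called 189 of 6945 and 54 of 6503.

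Members kept more of several pluripotency genes outside the rule than streak cells. The sum of Klf2, Zfp42 and Nanog, which took part in choosing the members, was instead higher in streak cells. Library by library, this sum reached 193 CPM (Type I), 220 CPM (Type II) and 188 CPM (Type III) there, while members had 118, 153 and 151 CPM. Nanog alone went the same way in each library. These values are a description, with no test. Utf1, not called against naive cells, stood at 358, 357 and 396 CPM in members against 125, 135 and 35.6 CPM in streak cells (1.45 ± 0.14, adjusted p = 1.26e-22). Dnmt3a stood at 81.1, 74.1 and 74.5 CPM against 22.4, 31.2 and 50.8 (adjusted p = 1.34e-10, 0.0797 without Type I and 0.17 without Type II). Fgf4, a ligand made by pluripotent cells, stood at 51.6, 45.7 and 67.2 CPM against 12.5, 13.8 and 0 (1.86 ± 0.26; 0.0602 without Type II). Apela, a peptide ligand of the apelin receptor, had the largest rise at 50 CPM or more, with 81.6, 71.7 and 102 CPM against 12.5, 19.6 and 10.2 (2.21 ± 0.23), followed by Tasor at 1.60 ± 0.24; Igfbp2, which binds insulin-like growth factors, stood at 395, 400 and 734 CPM against 122, 164 and 137 (1.47 ± 0.14). Of 19 primed and formative genes tested 9 rose and 2 fell (7 and 0 without Type I, 1 and 0 without Type II), and of 14 naive genes 6 rose and 0 fell (3 and 0 rises in those fits).

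Signals of the streak separated the classes although Nodal did not. Nodal stood at 93.1, 110 and 184 CPM in members and at 115, 92.7 and 122 CPM in streak cells (-0.02 ± 0.16, adjusted p = 0.981), with no shared direction over the libraries. Lefty1 stood at 1.84, 4.51 and 3.63 CPM against 10.8, 81.9 and 0 (-3.88 ± 0.34), and Lefty2 at 1.84, 3.45 and 1.82 CPM against 20.6, 34.1 and 40.7 (-3.32 ± 0.40). Rspo3, a WNT agonist, stood at 0.922, 0.531 and 0 CPM in members against 84.2, 56.5 and 193 CPM in streak cells (-6.51 ± 0.39). Of 14 BMP genes that passed the filter 0 rose and 7 fell, with a median of -0.75 (4 falls without Type I and 4 without Type II). Msx1 stood at 8.29, 2.65 and 5.45 CPM against 48.4, 56.5 and 45.8 (-3.44 ± 0.30), and Id1 at 200, 244 and 92.7 CPM against 464, 419 and 305 (-0.99 ± 0.13). Cdx2, a caudal-type homeobox factor, stood at 0, 1.06 and 0 CPM against 40.3, 36.2 and 20.3, and Vim, an intermediate filament of mesenchyme, at 16.6, 22.3 and 19.99 CPM against 167, 46.4 and 524 (-2.18 ± 0.20).

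The tested interferon genes lay on the other side in this comparison: of 13 that passed the filter 0 rose and 8 fell, with a median of -1.11 (8 falls without Type I and 4 without Type II). Genes low in members could enter through streak cells, so this is no count over the list. Isg15 stood at 5.07, 7.96 and 7.27 CPM in members against 120.1, 59.4 and 163 CPM in streak cells (-3.58 ± 0.24, adjusted p = 2.41e-46), and Psmb8 at 18.9, 10.9 and 16.4 CPM against 50.2, 47.8 and 239 (-1.79 ± 0.24). Bst2 stood at 847, 648 and 1021 CPM against 639, 672 and 559 and was not called (0.17 ± 0.11, adjusted p = 0.499). Members therefore lay above naive cells and below streak cells for Isg15 and Psmb8, and for Bst2 above naive cells only.

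Few genes of the members differed in size between Types I and II. With 1 library a type there is no test, and Type III was left out at 6 cells. Of 2471 genes with at least 50 CPM in Type I or II, 4 (0.162%) differed at least 2-fold with 10 CPM added. Tdh stood at 120.5 CPM in Type II (exact 95% Poisson interval 109.7 to 132) against 54.8 CPM in Type I (45.4 to 65.6), where 1 cell gave 31.9% of its UMIs. Hist1h1b, a linker histone of dividing cells, stood at 103 CPM (92.7 to 113) against 42.4 (34.2 to 52.0). Hes1, a repressor downstream of Notch, stood at 111 CPM (100.3 to 122) in Type II against 235 (215 to 256) in Type I, and Gfod2 at 14.1 (10.5 to 18.4) against 65.4 (55.1 to 77.1). Gfod2 was seen in 27.3% of members in Type II and 43.2% in Type I, and 1 cell gave 24.5% and 23.9% of its UMIs. For Hes1 1 cell gave 14.1% and 17.3%. The intervals cover counting error only, not the spread between cells. Over lists, the 12 cholesterol genes at that level had a median log2 ratio of 0.43 of Type II over Type I, the 5 naive genes 0.30 and the 3 interferon genes -0.38, against 0.01 for all genes.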

How the data were processed

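The deposited files hold raw UMI counts per gene and barcode for 3 libraries of 10x 3' chemistry, which the file headers credit to Cell Ranger 6.0.1 and the submitters' processing notes to mm10; the sources used here do not give how cell barcodes were called. Library totals were 90126648, 106445641 and 25443474 UMIs in Types I, II and III over 32285 genes. Counts of a 3' end do not grow with transcript length, and levels are CPM of the sum over a class.

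The members and the 27 gene lists were chosen with earlier results of these data known. Class sums with at least 10 cells were tested with edgeR 4.0.16 (R 4.3.3; TMM, filterByExpr, library as block); the 19 genes of the rule were kept out of the calls. Sums of 1 library are not replicates of a type, and cells are not replicates. DESeq2 1.42.0 was an alternative, scanpy 1.11.5 ran Scrublet. Named genes are the 8 highest and 8 lowest called at 50 CPM or more and, in each list, up to 4 called in each direction and all tested Nodal genes, of which 1 is not reported here; Axin2, B2m, Bst2, Cdh1, Dnmt1, Dppa5a, Esrrb, Etv4, Klf4, Lef1, Meg3, Nr1h2, Tbx3, Tet1, Tfcp2l1, Utf1 and Zic2 fall outside it and were chosen after their values were seen. On simulated counts for the comparison with naive cells (12016 genes) edgeR recovered 47.4% of 97 genes changed 1.5-fold and 72.5% of 98 changed 2-fold, with 6 false calls. For streak cells (8453 genes) it recovered 12.4% of 97 and 62.2% of 90, with 3. The simulation used 1 mean profile and 1 dispersion for all genes (0.00259 and 0.00886), with no difference between libraries. The real libraries are of different types, so it does not give the error rate of the real calls. Between-type ratios added 10 CPM.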

Additional observations from a re-analysis of the deposited data

Results flagged for a closer look

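Id1 stood apart because its direction differed between libraries: over naive cells the log2 ratio of members was 0.69 in Type II and -0.51 in Type III, a difference that was not tested and rests on 6 cells in Type III.

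Barcodes of at least 1000 and under 10000 UMIs, which enter no comparison, were counted for the rest of the rule. It held for 11 of 3943 in Type I (0.279%), 30 of 6349 in Type II (0.473%) and 7 of 966 in Type III (0.725%), above the limits that a count of 0 would allow (0.0761%, 0.0473% and 0.311%). Of these, 9, 22 and 3 had an excess of only 1 UMI, and Nodal was seen in 2, 7 and 2.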

How the results depend on the processing

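Genes called against naive cells numbered 511 with DESeq2, 460 with barcodes thinned before summing and 569 to 2048 when 1 library was left out (899 without Type I); DESeq2 size factors, no filter, at least 20000 UMIs, at most 10% mitochondrial UMIs, removal of high Scrublet scores, an excess of at least 3 UMIs, Type III included, no shared barcodes and no deepest member gave 1565 to 2302. Scaling by library totals lay above that range, with 2645 genes called against naive cells. Of these, 1817 were higher and 828 lower, against 946 and 1102 with TMM scaling. Only 66.8% of the 2645 were also called with TMM scaling in the same direction, so the number of rises depends on the scaling. Against streak cells the numbers were 72 with DESeq2, 116 thinned, 365 at 10% mitochondrial UMIs, 248 with Type III, 422 without high Scrublet scores and 54 to 633 with 1 library left out (189 without Type I). Without the replicate block 1563 and 355 genes were called; each library is its own pair, and no sample numbers pair the types. The share of members was 1.49% in Type I and 3.06% in Type II with an excess of at least 3 UMIs, and 1.78%, 3.21% and 4.04% in Types I, II and III with the rule on thinned counts, where Type III, with 11 cells, was highest and not lowest (2.63%, 3.87% and 2.21% on full counts). With 50 CPM added 0 genes differed 2-fold between the types. Without thinning Otx2 was seen in 78.4% and 79.2%, Pou3f1 in 91.9%, 93.5% and 100% and Fgf5 in 51.4% and 54.5% of members (Nodal 83.8%, 93.5% and 100%); without shared barcodes the 2 Type III cells left had Otx2 and Fgf5 in 0% and Pou3f1 in 100%. Signs turned for genes that were not called and for Id1, which was called at 0.34. Against naive cells they turned for Furin (-0.142 thinned), Lefty2 (0.0803 library totals, 0.0079 no replicate block, 0.032 at 20000 UMIs, 0.2401 excess of 3) and Smad7 (0.1083, 0.0161 DESeq2, 0.0018, 0.0043 at 10% mitochondrial UMIs, 0.0879, 0.1045 thinned, 0.0012 no shared barcodes, 0.014 no deepest member), Utf1 (0.0756 library totals, 0.0214 excess of 3, -0.0828 to 0.0415 with 1 library left out), Dnmt1 (0.0147 thinned, -0.282 to 0.0335), Nr1h2 (0.0111 library totals) and Id1 (-0.2027 to 0.3442 with 1 library left out). Against streak cells Nodal turned (0.0358 excess of 3, 0.1162 thinned, 0.1473 with Type III, -0.0192 to 0.4516 with 1 library left out). Of 74 named genes called against naive cells, 16 lost the call with DESeq2 (Acvr2b, Bmp4, Eomes, Id1, Ifitm3, Isg15, Krt7, Scd1, Skil, Tdgf1, Tead4, Wnt3, Wnt8a, B2m, Lef1 and Zic2) and 15 with thinning, which discards UMIs (Acvr2b, Dnmt3a, Gbp2, Gdf3, Id1, Ifitm3, Myc, Nes, Nodal, Scd1, Skil, Tdgf1, Tead4, B2m and Zic2); of 16 against streak cells, Tasor and Vim lost it with DESeq2 and Dnmt3a, Psmb8 and Tasor with thinning. The causes were not tested. With 6 members, Type III limits what depth can show.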

Other observations

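Imprinted genes, which are expressed from 1 parental copy, were more often higher in members than in naive cells. Of 26 tested, 13 rose and 0 fell; the median log2 fold change was 0.44 against -0.01 for all genes; 6 rose without Type I and 5 without Type II. The maternally expressed long RNAs Meg3 and Rian, of 1 cluster, stood at 594, 502 and 514 CPM against 372, 278 and 228 CPM (0.65 ± 0.06) and at 173, 131 and 124 CPM against 101, 67.8 and 65.8 CPM (0.75 ± 0.08). The paternally expressed Peg3 stood at 156, 201 and 76.3 CPM in members, 92.1, 101 and 62.5 CPM in naive cells (0.77 ± 0.08; adjusted p = 0.0701 without Type II) and 603, 653 and 320.3 CPM in streak cells (-1.83 ± 0.13).

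Cell cycle genes moved little. Of 20 S phase genes 2 rose and 4 fell, with a median of -0.08 that turned to 0.04 under library totals, and of 20 G2 and M phase genes 2 rose and 0 fell (8 under library totals). Cdkn1a (p21), an inhibitor of cyclin-dependent kinases, stood at 207, 237 and 207 CPM against 124, 138 and 131 CPM (0.64 ± 0.07), and Trp53 at 169, 193 and 189 CPM against 237, 245 and 228 (-0.53 ± 0.07). Immediate early genes, which also respond to dissociation, gave 6 rises and 1 fall of 18, and 1 and 0 rises without Type I and without Type II. Fos stood at 36.9, 37.4 and 9.09 CPM against 11.3, 16.5 and 18.1 (1.27 ± 0.15), lower than naive cells in Type III and not called without Type I (adjusted p = 0.0552) or Type II (0.154).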
